A study of Mus musculus with 12 samples.

Results

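Loss of Llgl1 and Llgl2 in newborn mouse epidermis was examined as an average over 2 Trp53 genotypes. All 12 libraries of the series entered: the 6 L1L2cKO and L1L2p53cKO libraries were set against the 6 Control and p53cKO libraries, with Trp53 genotype as a term. Control mice carried K14-Cre alone, L1L2cKO mice carried K14-Cre with both Llgl genes flox/flox, p53cKO mice carried K14-Cre with Trp53 +/flox, and L1L2p53cKO mice carried K14-Cre with the floxed Llgl alleles and Trp53 +/flox, with 3 newborn mice in each group. K14-Cre was thus present in every group, controls included, and p53cKO denotes loss of 1 Trp53 allele, not of both. The K14 promoter acts in basal keratinocytes and their descendants, so T cells, adipocytes, fibroblasts and melanocytes in the same sample are not its intended targets. Recombination was not measured in any cell type here. The libraries that carry the Llgl deletion are called Llgl-deleted here, and the other 6 Llgl-intact. By the genotypes given, floxed Llgl alleles occurred in the Llgl-deleted mice only. The deletion and other inherited differences that go with those alleles therefore cannot be told apart here.

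Llgl1 and Llgl2 encode lethal giant larvae proteins, which work with the Scribble and Dlg scaffolds to mark the basolateral side of epithelial cells and to keep the apical Par complex away from it. In basal keratinocytes this machinery bears on cell adhesion, spindle orientation and the order of layers, and lgl mutants of Drosophila form epithelial tumours. Newborn epidermis also holds growing hair follicles, in which Wnt, BMP, Hedgehog and Eda signals set up the follicle and the shaft and its inner root sheath later fill with keratins.

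Of the known transcriptional targets of Wnt signalling 4 rose, and the promoters of 3 of them, Sp5, Lef1 and Nkd1, are shown. Apcdd1 rose as well, and its promoter was left out, so the 3 windows do not stand for all 4 genes. The sequences are RefSeq windows of the GRCm38.p6 build, 300 bases each, from 250 bases before to 50 bases after the annotated start, written 5′ to 3′ on the strand of the gene. Capitals mark CTTTGA on either strand, the core of the element bound by Lef1 and Tcf proteins. The windows are chr2:70474673-70474972 for Sp5, chr3:131110047-131110346 for Lef1, the first of 4 promoters listed for that gene, and chr8:88527383-88527682 for Nkd1, all on the plus strand. The Nkd1 window lies inside the GENCODE gene used for its counts, which starts upstream at 88521354, so it is 1 annotated start of that gene and not its first.
Sp5: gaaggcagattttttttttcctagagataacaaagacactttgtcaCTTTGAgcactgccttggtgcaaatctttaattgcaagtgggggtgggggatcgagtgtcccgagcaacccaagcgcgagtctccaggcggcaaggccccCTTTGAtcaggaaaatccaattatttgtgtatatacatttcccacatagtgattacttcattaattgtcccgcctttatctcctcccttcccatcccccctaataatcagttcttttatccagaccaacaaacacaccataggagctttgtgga
Lef1: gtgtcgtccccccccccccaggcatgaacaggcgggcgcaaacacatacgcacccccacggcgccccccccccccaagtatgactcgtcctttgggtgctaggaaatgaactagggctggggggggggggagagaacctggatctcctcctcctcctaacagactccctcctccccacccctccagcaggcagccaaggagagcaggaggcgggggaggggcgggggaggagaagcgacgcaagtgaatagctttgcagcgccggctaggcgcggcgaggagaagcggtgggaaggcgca
Nkd1: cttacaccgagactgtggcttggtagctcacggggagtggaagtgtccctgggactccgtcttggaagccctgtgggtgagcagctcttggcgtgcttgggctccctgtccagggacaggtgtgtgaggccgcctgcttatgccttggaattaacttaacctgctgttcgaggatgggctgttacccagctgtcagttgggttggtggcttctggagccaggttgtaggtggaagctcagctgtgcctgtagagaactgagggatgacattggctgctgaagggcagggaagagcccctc
CTTTGA occurred at 2 places in the Sp5 window, both before the annotated start, and at 0 places in the Lef1 and Nkd1 windows. Of all 32851 promoter windows of this length, 16% held it. A match is a description of the letters only, and its absence from a window of this length says nothing about the factor.

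Across 14582 genes tested, 485 were called, 172 higher and 313 lower in the Llgl-deleted libraries. The threshold for a call was an edgeR p, adjusted by the Benjamini-Hochberg method, below 0.05, and fold changes are log2 differences between Llgl-deleted and Llgl-intact libraries averaged over both Trp53 genotypes, each with its standard error (SE). The background shares are 3.33% called, 1.18% higher and 2.15% lower. An unadjusted edgeR p below 0.05 was found for 2661 of the 14582 genes, the background for such counts in the lists below. Levels are CPM, the count of a gene as a share of the scaled library size, 1 value per mouse. The 6 values of one side lay wholly above those of the other in 188 genes (1.29%), and wholly below in 177 (1.21%), together 2.5% of those tested; 125 of the genes called higher and 100 of those called lower were of this kind. The median log2 change of all genes was -0.00 and 49.6% were positive. Library totals ran from 6738720 to 14509507 counts. Epidermal markers were abundant on both sides: Krt5 ran from 8932 to 9513 CPM in Llgl-intact and from 7395 to 10770 CPM in Llgl-deleted libraries, and Krt10 from 25140 to 34960 and from 21730 to 45000 CPM.

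Libraries Control 3 and p53cKO 3 stood apart from the other 4 Llgl-intact libraries. On the first principal component, which held 44.5% of the variance, they lay at 9.75 and 5.33, the other 4 Llgl-intact libraries between -60.15 and -42.28, and the Llgl-deleted libraries between 5.23 and 55.66. Both were female by Xist, as were Control 2, L1L2cKO 1 and L1L2p53cKO 1. Without both libraries 2334 of 14761 genes (15.8%) were called, 1185 higher (8.03%) and 1149 lower (7.78%). Counts without both are given with most gene groups below, as higher and lower calls where both occur. Since they were left out for their position in these same data, such counts are descriptions. Leaving out single libraries also moved the counts. Without Control 2 there were 71 genes called higher and 93 lower, and without L1L2cKO 1, L1L2p53cKO 2, p53cKO 2, p53cKO 1 or L1L2p53cKO 3 there were 85, 85, 89, 90 and 97 higher and 102, 106, 136, 150 and 106 lower. Without Control 1 or L1L2cKO 3 the lower calls numbered 189 and 200, and without the library labelled p53cKO 3 alone the higher calls numbered 263. The abundant transcript Yam1, which resembles ribosomal RNA and was chosen after its values were seen, was at 5484, 8852 and 44260 CPM (lowest, median, highest) in Llgl-intact and 1572, 1714 and 3366 CPM in Llgl-deleted libraries, without overlap (log2 change -3.21, SE 0.61, adjusted p = 0.021). Its part in the results below was not tested. Bulk libraries cannot tell fewer cells of a type from less RNA per cell.

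Among the targeted genes, Llgl2 fell in all 6 Llgl-deleted libraries. Llgl2 (chr11:115824049-115855780, GRCm38) was at a lowest, median and highest value of 65.4, 91.0 and 109.9 CPM in Llgl-intact libraries and 6.12, 7.68 and 12.4 CPM in Llgl-deleted libraries. The groups did not overlap, and the log2 change was -3.40 (SE 0.21, adjusted p = 9.5e-06). Llgl1 (chr11:60699723-60714186) moved the other way, at 114.9, 132 and 173 CPM against 187, 233 and 280 CPM, again without overlap (log2 change 0.79, SE 0.12, adjusted p = 0.0072). Counts summed over a gene do not resolve which exons were removed, so neither value measures recombination. Trp53 was not called (log2 change -0.03, SE 0.16, adjusted p = 0.94), and its sign turned under 5 alternatives. Within p53cKO it stood at 61.8 and 60.9 CPM in replicates 1 and 2 and at 115 CPM in the library labelled p53cKO 3, inside the Control range of 109 to 130.5 CPM. In L1L2p53cKO it was 98.3, 67.8 and 65.9 CPM in replicates 1 to 3. The Trp53 level was thus higher in the library labelled p53cKO 3 than in its group mates, and likewise in L1L2p53cKO 1. Such levels do not measure recombination of Trp53, and the labels were kept. Both libraries bear on the Trp53 term of the fit.

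The partners of Llgl in the polarity machinery were mostly not called. Of the 9 tested genes of the Scribble module 1 was called higher and 1 lower, and these were Llgl1 and Llgl2 themselves. Scrib, the scaffold that gives the module its name, ran from 229 to 276 CPM in Llgl-intact and from 214 to 292 CPM in Llgl-deleted libraries (log2 change -0.01, SE 0.09, adjusted p = 0.98). Dlg1, a membrane-associated guanylate kinase scaffold, differed by 0.06 (SE 0.07, adjusted p = 0.73) and Dlg3 by -0.22 (SE 0.10, adjusted p = 0.25). Of 14 genes of the Par and Crumbs complexes, 18 of planar polarity and 11 of spindle orientation, 0 were called by edgeR in each list. At an unadjusted p below 0.05 there were 2, 4 and 0 genes in these lists, and DESeq2 called 1 planar polarity gene higher and 1 lower and 0 of the others. Mylk, which encodes myosin light chain kinase, was the 1 gene called among 19 of the myosin and exocytosis list: it was lower, at 4.29 to 5.89 CPM against 1.79 to 3.18 CPM (log2 change -0.82, SE 0.18, adjusted p = 0.027). This call was lost with each of 8 libraries left out in turn, all but Control 3, the library labelled p53cKO 3, L1L2p53cKO 1 and L1L2p53cKO 3. With Control 3 and the library labelled p53cKO 3 both left out, the calls were 1 higher and 2 lower in the Scribble module, 0 and 1 in the Par and Crumbs list, 1 and 3 in planar polarity, 1 and 1 in spindle orientation, and 0 and 2 in the myosin and exocytosis list.

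Junction and adhesion genes were mostly not called. Of 8 adherens junction genes edgeR called 0, with 2 at an unadjusted p below 0.05, and DESeq2 called 2 higher. Cdh1, the gene of E-cadherin, was chosen after its values were seen: it was at 683, 747 and 776 CPM against 803, 935 and 1038 CPM, with no overlap, and its log2 change of 0.34 (SE 0.09) missed the threshold (adjusted p = 0.071). P-cadherin Cdh3, chosen in the same way, differed by 0.46 (SE 0.13, adjusted p = 0.081). The tight junction gene Ildr1, of tricellular contacts, was called lower (log2 change -1.41, SE 0.34, adjusted p = 0.045), as was the desmosomal cadherin gene Dsg4, active in the hair shaft, (log2 change -1.83, SE 0.44, adjusted p = 0.048). Both of these calls were lost with each of 9 libraries left out in turn, all but Control 3, the library labelled p53cKO 3 and L1L2cKO 2. Without Control 3 and the library labelled p53cKO 3 together, 6 of 18 tight junction genes were called lower, 1 desmosomal gene lower and 3 adherens junction genes higher.

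Keratinocyte layer genes changed in few cases. Of 14 basal layer genes 1 was called, the insulin-like growth factor binding protein gene Igfbp3, which was lower at 2.76, 7.71 and 10.28 CPM in Llgl-deleted libraries against 11.9, 25.2 and 47.4 CPM (log2 change -1.82, SE 0.36, adjusted p = 0.024). That call was lost without Control 2, p53cKO 1, p53cKO 2, L1L2cKO 1, L1L2cKO 3 or L1L2p53cKO 2. Krt5 and Krt14, the keratin pair of the basal layer, differed by -0.09 (SE 0.10, adjusted p = 0.72) and -0.19 (SE 0.12, adjusted p = 0.43). Of 23 spinous and granular genes 1 was called, Skint3, described below. Of 44 cornified envelope genes 2 were called higher and 1 lower, with a list median of -0.10. Sprr2d, a small proline-rich envelope protein gene, was at 3.46, 11.5 and 17.2 CPM against 17.3, 50.8 and 272 CPM, and the lowest Llgl-deleted library was just above the highest Llgl-intact library (log2 change 3.07, SE 0.67, adjusted p = 0.031). For Flg, the filaggrin gene, 5 identifiers sharing the symbol were tested and disagreed: 1 was called higher (log2 change 0.91, SE 0.20, adjusted p = 0.032), and the other 4 had negative changes and were not called, so no direction is given for the gene. The most abundant of them, at a median of 2769 CPM in Llgl-intact libraries, differed by -0.47 (adjusted p = 0.39). The value of the called identifier was 130.3 CPM in p53cKO 1 against 56.1 to 69.3 CPM in the other Llgl-intact libraries. Involucrin Ivl fell, from 432, 666 and 916 CPM to 241, 333 and 478 CPM, with overlap (log2 change -0.93, SE 0.21, adjusted p = 0.032). The Ivl call was lost with each of 10 libraries left out, all but Control 3 and the library labelled p53cKO 3. The Flg call was lost without Control 1, Control 2, p53cKO 2, L1L2cKO 1, L1L2cKO 3 or L1L2p53cKO 2, and the Sprr2d call without any 1 of 9 libraries, among them Control 3 and the library labelled p53cKO 3 (the call was also lost without both). Without both, 11 cornified envelope genes were called lower and 2 higher, 6 spinous and granular genes lower and 0 higher, and 2 basal layer genes higher and 2 lower.

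Keratin genes of internal epithelia were represented by Krt13, a keratin of non-cornified stratified epithelia. It rose from 0.15, 0.43 and 0.73 CPM to 1.15, 1.82 and 3.42 CPM, without overlap (log2 change 2.10, SE 0.36, adjusted p = 0.013). These levels are low, yet the call held under each alternative run. It was the 1 gene called among 10 simple and internal keratins. In that list 1 gene was called higher and 1 lower without Control 3 and the library labelled p53cKO 3.

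A few genes of BMP and Wnt signalling rose in Llgl-deleted epidermis, while the medians of their lists were near 0: 0.06 for the BMP list, 0.10 for Wnt ligands and receptors and -0.03 for follicle stem cell genes. Bmp2, Bmp7, Fst, Wnt6, Wnt10b, Lgr6 and Sp5 were called in each alternative run. Bmp2, a BMP ligand of the follicle placode, rose from 37.1, 44.2 and 52.0 CPM (lowest, median, highest) to 62.9, 91.5 and 100.3 CPM. No library overlapped (log2 change 0.96, SE 0.12, adjusted p = 0.0018). Bmp7, another BMP ligand, rose from 121, 133 and 147 CPM to 163.5, 193 and 222 CPM (log2 change 0.54, SE 0.09, adjusted p = 0.010). Fst encodes follistatin, a secreted antagonist of activins and some BMPs, and rose from 79.5, 87.7 and 104.7 CPM to 118.5, 134 and 145 CPM (log2 change 0.55, SE 0.08, adjusted p = 0.0075). In each of these 3 genes the lowest Llgl-deleted library was above the highest Llgl-intact library. Of 24 BMP pathway genes tested, these 3 were called higher and 1, the ligand gene Bmp8a, lower. The 3 higher calls held in each alternative run, while Bmp8a (log2 change -2.01, SE 0.47, adjusted p = 0.038) was lost with each of 8 libraries left out, all but Control 3, the library labelled p53cKO 3, L1L2cKO 2 and L1L2p53cKO 1. Bmp8a changed by -0.63 in Trp53-intact and by -3.38 in Trp53 +/flox epidermis, and its interaction was not called. The BMP calls were 3 higher and 4 lower without Control 3 and the library labelled p53cKO 3.

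Wnt ligands and receptors gave 2 genes called higher and 1 lower of 35 tested, with a list median of 0.10. Wnt6 rose from 36.1, 42.6 and 47.7 CPM to 53.8, 60.4 and 72.5 CPM (log2 change 0.59, SE 0.09, adjusted p = 0.0064). Wnt10b, a ligand expressed in the placode, rose from 57.8, 67.2 and 74.0 CPM to 82.1, 89.5 and 98.4 CPM (log2 change 0.44, SE 0.07, adjusted p = 0.0099). Neither gene overlapped between the sides, and both calls held in each alternative. The secreted Wnt antagonist Sfrp1 fell from 18.5, 23.5 and 27.6 CPM to 3.10, 8.39 and 23.5 CPM (log2 change -1.35, SE 0.30, adjusted p = 0.035). Its L1L2cKO 2 value of 23.5 CPM lay within the Llgl-intact range, and the call was lost with each of 8 libraries left out, all but Control 3, the library labelled p53cKO 3, L1L2cKO 2 and L1L2p53cKO 1. Lgr6, which encodes an R-spondin receptor, was called in the follicle stem cell list together with Fst, 2 higher and 0 lower of 18. It rose from 178, 193 and 205 CPM to 242, 315 and 321 CPM (log2 change 0.61, SE 0.10, adjusted p = 0.0088). The median of the stem cell list was -0.03, and Krt15 in that list differed by -0.03 (SE 0.14, adjusted p = 0.95). Without Control 3 and the library labelled p53cKO 3 together, 4 Wnt ligand and receptor genes were called higher and 3 lower, and 5 follicle stem cell genes higher and 2 lower.

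Of 19 Wnt target genes tested 4 rose and 0 fell, and 16 had a positive log2 change, with a median of 0.30 against -0.00 over all genes. Sp5, a zinc finger transcription factor whose promoter holds CTTTGA at 2 places, was at 1.29, 2.42 and 3.95 CPM in Llgl-intact and 6.95, 7.47 and 10.4 CPM in Llgl-deleted libraries. No library overlapped (log2 change 1.63, SE 0.28, adjusted p = 0.013). Lef1, the transcription factor of placodes and hair matrix that mediates the signal, ran from 20.9 to 47.3 CPM and from 53.5 to 69.8 CPM (log2 change 0.92, SE 0.19, adjusted p = 0.027). Apcdd1, a membrane antagonist of Wnt, rose from 245, 260.5 and 285 CPM to 306, 364 and 429 CPM (log2 change 0.49, SE 0.10, adjusted p = 0.022). Nkd1, an intracellular feedback inhibitor, rose from 7.11, 8.29 and 13.5 CPM to 12.9, 16.4 and 20.4 CPM with slight overlap (log2 change 0.84, SE 0.19, adjusted p = 0.031). Within the Llgl-intact side Control 3 and the library labelled p53cKO 3 had the highest values of Sp5 (3.95 and 3.54 CPM), Lef1 (47.3 and 41.7 CPM) and Nkd1 (13.5 and 10.99 CPM). Axin2, a widely used target of the pathway chosen here after its values were seen, differed by 0.21 (SE 0.16, adjusted p = 0.54). Sp5 was called in each alternative. The list count fell to 1 without Control 2, p53cKO 2, L1L2cKO 1, L1L2p53cKO 2 or L1L2p53cKO 3, and to 2 without p53cKO 1 or L1L2p53cKO 1. It rose to 8 without Control 3 or without the library labelled p53cKO 3, and to 9 without both, with 1 called lower.

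**Figure D1:**
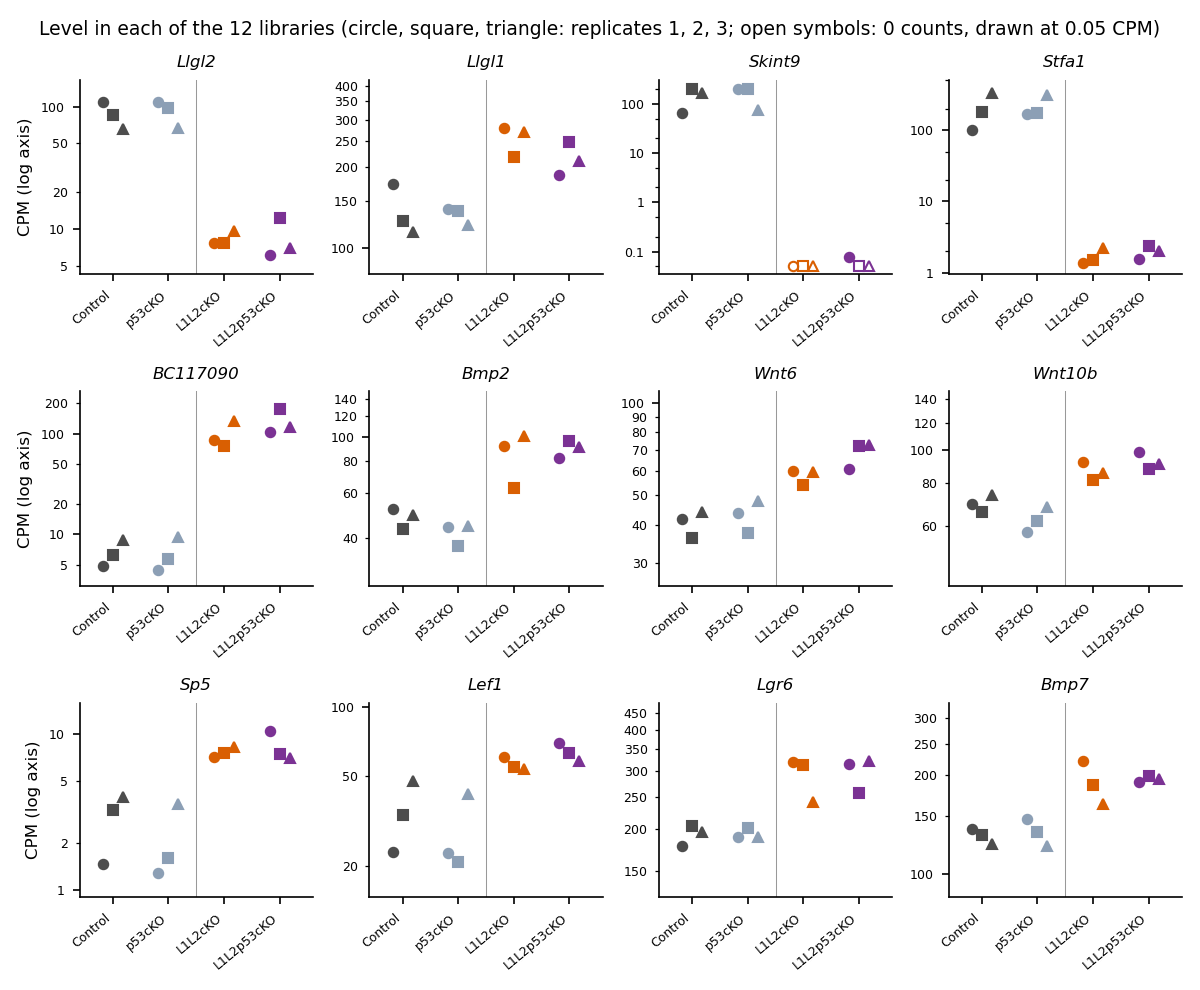
CPM in each library on log axes for 12 genes, in the order Control, p53cKO, L1L2cKO, L1L2p53cKO, with replicates 1 to 3 as circle, square and triangle and 0 counts drawn open at 0.05 CPM; the vertical line parts Llgl-intact from Llgl-deleted libraries. In Llgl2, Skint9 and Stfa1 the 6 Llgl-deleted values lay below the rest, and in the other 9 genes above it.

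Notch genes gave few calls. Of 20 Notch genes 2 were called higher, Lfng, a glycosyltransferase that modifies Notch (log2 change 0.47, SE 0.11, adjusted p = 0.038), and the protease gene Adam10 (log2 change 0.38, SE 0.09, adjusted p = 0.050). Neither gene overlapped between the sides. Calls for Lfng were lost with each of 9 libraries left out, all but Control 3, the library labelled p53cKO 3 and L1L2cKO 3, and those for Adam10 with each of the 10 libraries other than Control 3 and the library labelled p53cKO 3. Of 29 YAP targets, 23 EGFR pathway genes and 32 p53 targets, edgeR called 0 in each list, with medians of 0.03, 0.02 and -0.01 and with 3 genes of each at an unadjusted p below 0.05. DESeq2 called 0, 2 and 1 of them, all lower. Without Control 3 and the library labelled p53cKO 3 together, the calls were 2 higher and 1 lower in the Notch list, 3 and 1 in YAP targets, 0 and 3 in the EGFR pathway, and 2 and 2 in p53 targets.

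Most tested genes of 3 lists of the differentiated hair fell. Of 14 hair keratins 11 fell and 0 rose (median -3.11), of 41 keratin-associated proteins, the matrix of the hair shaft, 32 fell and 0 rose (median -4.26), and of 17 inner root sheath genes 10 fell and 0 rose (median -2.15). Of 24 other hair genes, Padi3 among them, 6 fell and 1, Lef1, rose (median -0.38). The shares of all tested genes called were 2.15% lower and 1.18% higher. The Llgl-deleted values lay wholly below the others in 0 hair keratins, 1 keratin-associated protein gene and 0 inner root sheath genes. Over all tested genes that share was 1.21%. Tchh, the trichohyalin gene, was at 2343, 1526 and 405 CPM in Control 1 to 3, 1847, 1480 and 650 CPM in p53cKO 1 to 3, 190, 834.5 and 361 CPM in L1L2cKO 1 to 3, and 101, 43.8 and 60.5 CPM in L1L2p53cKO 1 to 3. The sides overlapped, because Control 3 and the library labelled p53cKO 3 were low and L1L2cKO 2 was high (log2 change -2.95, SE 0.50, adjusted p = 0.014). Krt34, a hair cortex keratin, ran from 5.88 to 66.1 CPM in Llgl-intact and from 0.59 to 16.2 CPM in Llgl-deleted libraries (log2 change -3.89, SE 0.69, adjusted p = 0.015). Krtap4-1 ran from 1.53 to 26.2 CPM and from 0 to 4.59 CPM (log2 change -5.24, SE 0.92, adjusted p = 0.015), with 0 counts in L1L2p53cKO 2 and 3. Padi3, a peptidylarginine deiminase that modifies trichohyalin, ran from 34.2 to 146 CPM and from 5.29 to 82.2 CPM (log2 change -2.15, SE 0.44, adjusted p = 0.024). Krt84, chosen after its values were seen, was the 1 hair keratin with a positive change (2.52, SE 0.67, adjusted p = 0.063). Genes of the keratin-associated families are similar in sequence and lie in clusters, so reads may have been split among them. Of the 53 genes of the first 3 lists called lower, 26 were on chromosome 11 and 13 on chromosome 16. These chromosomes had 6.39% and 7.13% of tested genes called.

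In Trp53-intact epidermis the medians of the hair lists were nearer 0 than in Trp53 +/flox epidermis, but no difference between the genotypes was called. Hair keratins had a median of -1.89 in L1L2cKO against Control and -4.59 in L1L2p53cKO against p53cKO. Keratin-associated proteins had medians of -2.70 and -5.78, and inner root sheath genes of -1.03 and -3.24. Over all 485 called genes the sign was the same in both genotypes, and 385 changed more in the Trp53 +/flox comparison. That count was not taken over all tested genes. Median changes of the genes called lower were -1.44 and -2.63, and of those called higher 0.85 and 1.10. The direct test of the difference called 0 genes (0%) at an adjusted p below 0.05 with edgeR and 0 with DESeq2. Of the 14582 genes 428 had an unadjusted edgeR p below 0.05 in that test, fewer than the 2661 for the average change. These 2 comparisons share no library, but the average that chose the genes contains both, so the shared sign is a description.

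**Figure D2:**
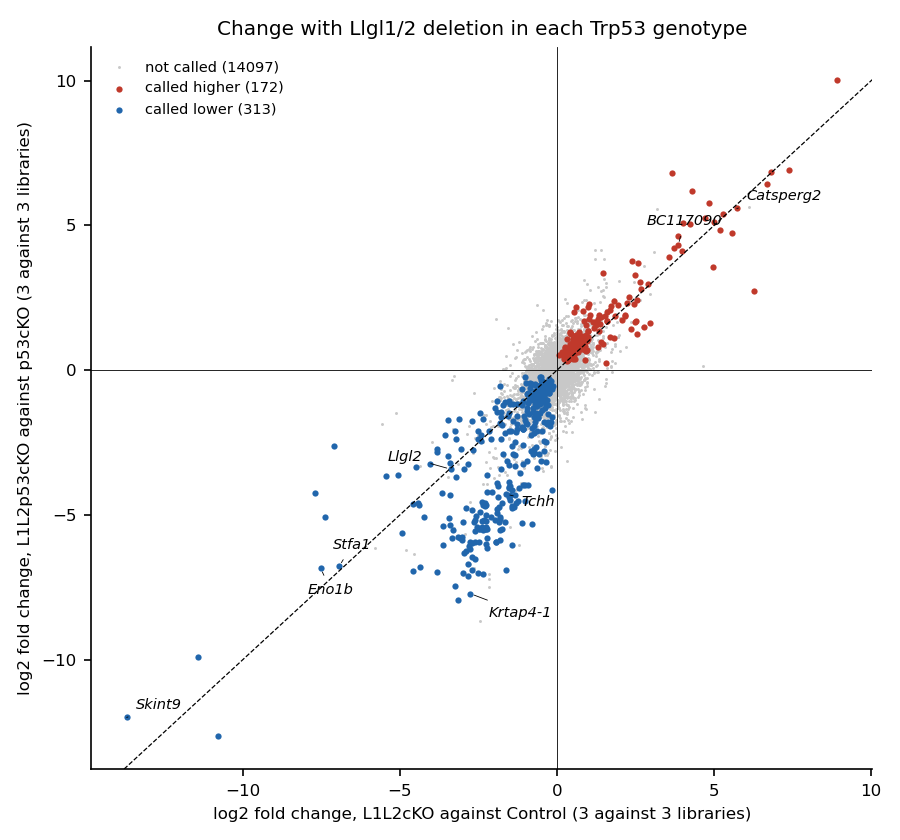
Each point is a tested gene, with its log2 fold change in L1L2cKO against Control on the horizontal axis and in L1L2p53cKO against p53cKO on the vertical axis, 3 against 3 libraries each; red and blue mark the 172 genes called higher and the 313 called lower in the average, and the dashed line marks equal change. All 485 called genes lay in the quadrants of shared sign, and Tchh and Krtap4-1 lay below the line, Llgl2 on it.

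Hair calls depended on single libraries and on the form of the fit. With additive terms for Llgl and Trp53 in place of 4 group means, 6 hair keratins, 15 keratin-associated proteins and 2 inner root sheath genes were called lower. Of the other hair genes 0 were called lower in that fit. Hair keratin calls dropped from 11 to 2 without L1L2p53cKO 2 or without L1L2p53cKO 3, and to 7 without Control 2 or L1L2cKO 1. Calls of keratin-associated proteins dropped from 32 to 0 without L1L2p53cKO 2, to 1 without L1L2p53cKO 3, 2 without L1L2cKO 1, 4 without Control 2, 10 without L1L2cKO 3, 15 without p53cKO 2, 17 without p53cKO 1 and 19 without Control 1. Inner root sheath calls dropped from 10 to between 1 and 4 without any 1 of those 8 libraries. Lower calls among the other hair genes dropped from 6 to 0 or 1 without any 1 of the same 8. Without Control 3 and the library labelled p53cKO 3 together, 12 hair keratins, 40 keratin-associated proteins and 11 inner root sheath genes were called lower. Of the other hair genes 10 were then called lower and 3 higher. Of the hair genes named, Krt33b alone was called in each alternative (log2 change -3.83, SE 0.65, adjusted p = 0.014). Tchh was lost only where no filter on low counts was used (adjusted p = 0.052, the highest of its alternatives), Krtap4-1 there and without L1L2p53cKO 2, and Krt34 also without L1L2p53cKO 3. The Padi3 call was lost with each of 8 libraries left out, all but Control 3, the library labelled p53cKO 3, L1L2cKO 2 and L1L2p53cKO 1.

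**Figure D3:**
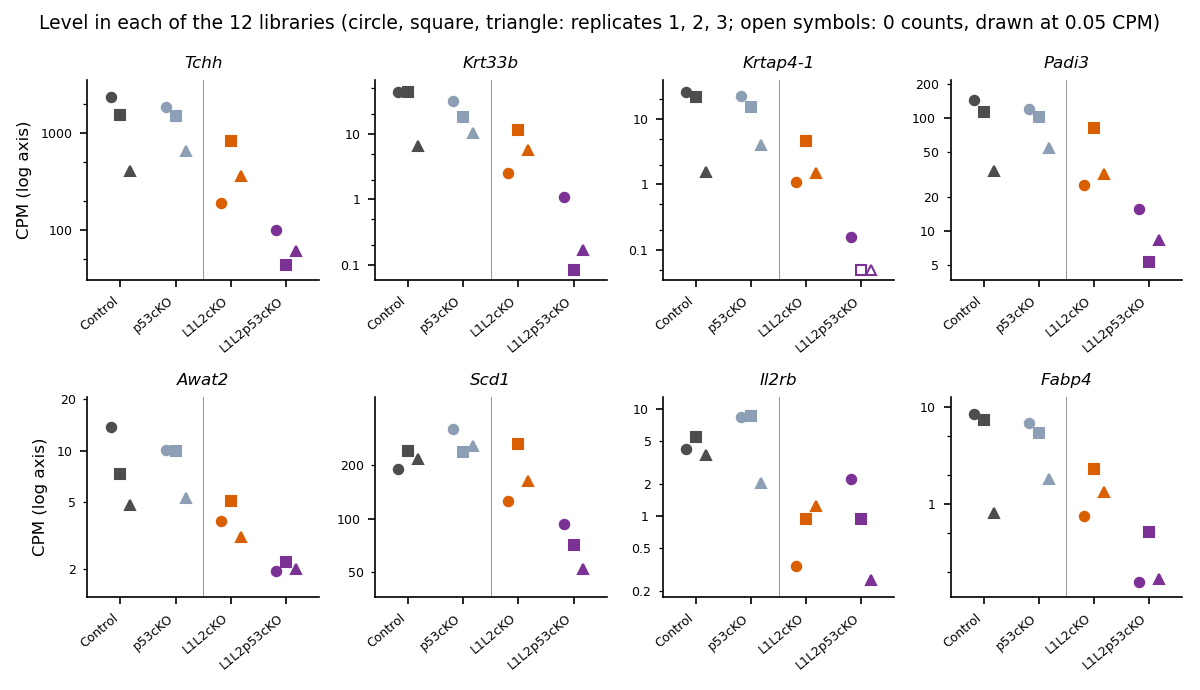
CPM in each library on log axes for 8 genes called lower, with groups, symbols and the vertical line as in the plot of genes by library. In Tchh, Krt33b, Krtap4-1 and Padi3 the triangles of Control and p53cKO lay below the square of L1L2cKO, and the L1L2p53cKO values were the lowest.

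Sebaceous gland genes fell as well, and few other lipid genes were called. Among 21 sebaceous gland genes there were 9 lower and 0 higher calls, and the list median was -0.75. Awat2, a wax ester synthase, fell from 4.76, 8.60 and 13.7 CPM to 1.96, 2.65 and 5.03 CPM (log2 change -1.55, SE 0.28, adjusted p = 0.015), with overlap only through L1L2cKO 2 and Control 3. Plin2, which coats lipid droplets, fell from 38.4, 50.8 and 68.0 CPM to 16.9, 25.4 and 38.8 CPM (log2 change -0.93, SE 0.17, adjusted p = 0.015). Scd1, a fatty acid desaturase, fell by 1.07 (SE 0.19, adjusted p = 0.015) and the fatty acid elongase Elovl6 by 0.73 (SE 0.13, adjusted p = 0.015). Scd1 changed by -0.22 in Trp53-intact and by -1.92 in Trp53 +/flox epidermis (interaction adjusted p = 1). Summed over the list, the level was 3020 to 3710 CPM in Llgl-intact and 2080 to 2840 CPM in Llgl-deleted libraries, which did not overlap. Awat2 and Plin2 were called in each alternative, while Scd1 and Elovl6 were lost with additive terms (adjusted p = 0.099 and 0.051, the highest of their alternatives). The list count fell to 5 without Control 2, p53cKO 1, L1L2cKO 1, L1L2cKO 3 or L1L2p53cKO 2 and to 4 without L1L2p53cKO 3, and was 13 without Control 3 and the library labelled p53cKO 3, and 3 with additive terms. Of 29 barrier lipid genes 2 fell, the fatty acid hydroxylase Fa2h (log2 change -1.75, SE 0.38, adjusted p = 0.032) and the elongase Elovl3 (log2 change -1.41, SE 0.33, adjusted p = 0.041). Fa2h changed by -0.33 in Trp53-intact and by -3.16 in Trp53 +/flox epidermis, and Elovl3 by -0.35 and -2.48, with neither interaction called. Each of these 2 lower calls was lost with 8 libraries left out in turn, all but Control 3, the library labelled p53cKO 3, L1L2cKO 2 and L1L2p53cKO 1. Of 29 cholesterol synthesis genes edgeR called 0 and DESeq2 1 lower, with 9 at an unadjusted p below 0.05 and a median of -0.14. Among these lists, without Control 3 and the library labelled p53cKO 3, 6 barrier lipid genes were called lower and 1 higher, and 2 cholesterol genes lower.

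**Figure D4:**
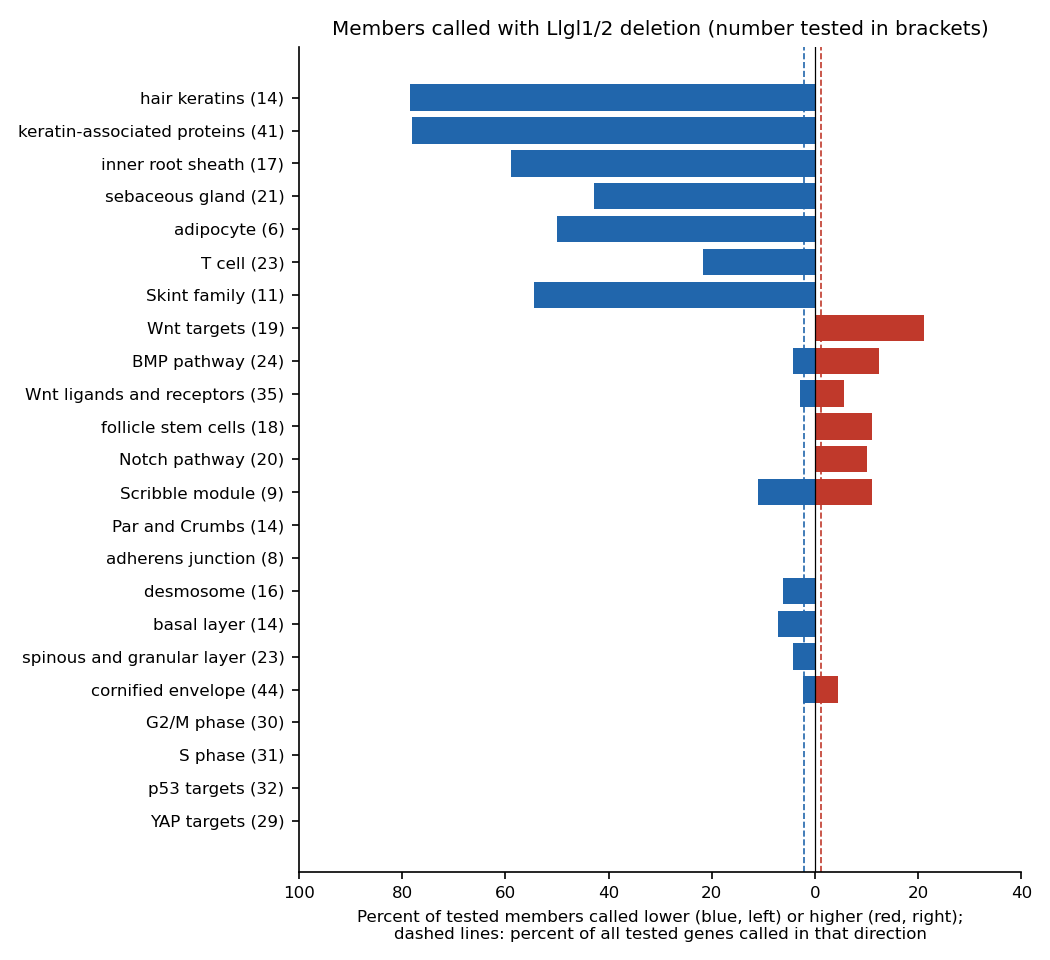
Percent of the tested members of 23 gene lists that were called lower (blue, to the left) or higher (red, to the right), with the number tested in brackets and dashed lines at the shares of all tested genes, 2.15% lower and 1.18% higher. Hair lists reached 78.6%, 78.0% and 58.8% called lower, and Wnt targets 21.1% called higher.

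Cell cycle genes had mostly positive changes but were not called. Of 30 G2/M genes 30 had a positive log2 change, with a median of 0.62, and 0 were called; of 31 S phase genes 26 were positive, with a median of 0.18, and 0 were called. DESeq2 also called 0 in both lists, and 2 G2/M genes and 0 S phase genes had an unadjusted p below 0.05. Ube2c, a ubiquitin-conjugating enzyme of mitotic exit, was at 7.99, 10.01 and 47.6 CPM against 28.3, 35.6 and 53.6 CPM (log2 change 0.86, SE 0.46, adjusted p = 0.35). Mki67, the proliferation marker, was at 50.04, 73.2 and 433.5 CPM against 184, 214.5 and 277 CPM (log2 change 0.32, SE 0.56, adjusted p = 0.81). The mean deviation of the G2/M list from the 12-library mean, in log2 CPM, was 0.80 in Control 3 and 1.03 in the library labelled p53cKO 3, from -1.40 to -1.05 in the other 4 Llgl-intact libraries, and from 0.27 to 0.84 in the Llgl-deleted libraries. The first of the 2 libraries was within the Llgl-deleted range and the second above it. Without the library labelled p53cKO 3 alone 5 G2/M genes were called higher, and without Control 3 alone 0. Without both, 30 of 30 G2/M genes were called higher (median 1.77) and 26 of 31 S phase genes (median 0.87), where 8.03% of all genes were called higher.

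**Figure D5:**
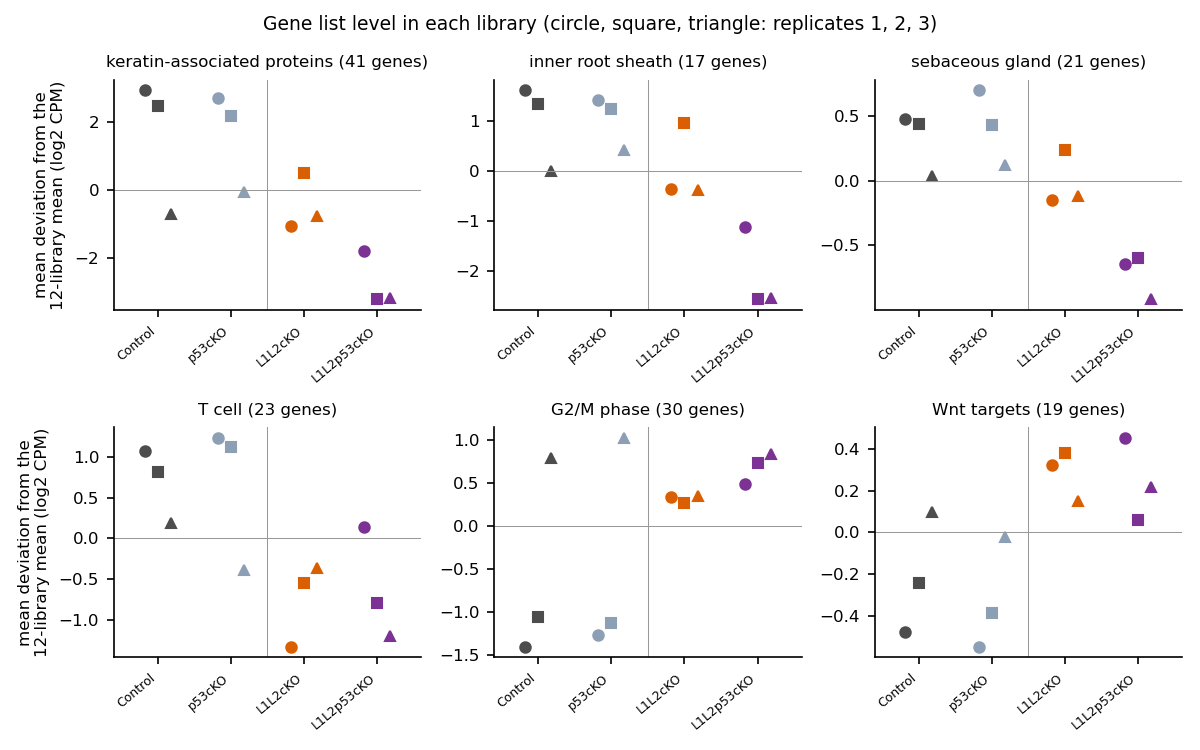
Mean deviation of each gene list from the 12-library mean in log2 CPM, for 6 lists, with 1 symbol per library (circle, square and triangle for replicates 1 to 3). In the G2/M panel the triangles of Control and p53cKO stood at 0.80 and 1.03 while the other Llgl-intact libraries were at or below -1.05, and in the hair, sebaceous and T cell panels the same triangles were the lowest of their groups.

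Skint9, Skint3, Skint4 and Eno1b were nearly absent from Llgl-deleted libraries, and Skint6 and Stfa1 were low there. The Skint genes encode immunoglobulin-superfamily proteins of keratinocytes and thymic epithelium, of which Skint1 is known for its role in selecting epidermal gamma-delta T cells. Skint9 (chr4:112385969-112433985) had 9311 counts over the 6 Llgl-intact libraries and 1 count over the 6 Llgl-deleted libraries, at 65.1, 180 and 202 CPM against 0, 0 and 0.08 CPM. The ratio was 11600 (exact binomial 95% interval 2070 to 456000, counting error only). Skint3 (chr4:112232245-112300468) and Skint4 (chr4:112072016-112168076) also had 1 count each over the Llgl-deleted libraries, against 4162 and 1990 counts, with ratios of 5160 (926 to 204000) and 2470 (443 to 97600). Adjusted p-values were 4.1e-05 for Skint9 and 5.2e-05 for Skint3 and Skint4. Skint6 fell from 25.2, 62.8 and 71.7 CPM to 1.82, 2.03 and 3.52 CPM (log2 change -4.51, SE 0.31, adjusted p = 2.5e-05). Of the 11 Skint genes tested 6 fell and 0 rose, and without Control 3 and the library labelled p53cKO 3 there were 7 lower and 1 higher calls. Within 5 Mb of Skint3 on either side 12 of 91 tested genes were called (13.2%), against 6 of 109 around Llgl1 (5.5%) and 9 of 165 around Llgl2 (5.45%). The 12 include the 6 Skint genes that fell, and the other 2 counts include Llgl1 and Llgl2 themselves. Around Krtap4-1, in a cluster of hair genes, 3 of 273 tested genes were called higher and 40 lower (15.8%). Skint genes are similar to each other, so counts of single members are uncertain where reads map to several of them. The parts of the deletion and of other inherited differences in these values were not tested.

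Stfa1, a stefin A gene for an inhibitor of cysteine proteases, fell from 100.7, 175.5 and 335 CPM to 1.37, 1.79 and 2.39 CPM (log2 change -6.85, SE 0.36, adjusted p = 6.5e-06). Its neighbour on chromosome 16 and near-identical copy in the stefin A family, BC117090, rose from 4.43, 5.98 and 9.49 CPM to 75.7, 109.9 and 175 CPM (log2 change 4.08, SE 0.25, adjusted p = 9.5e-06). Reads of such copies may have been assigned to either gene, so the pair is uncertain as 2 separate measurements. Eno1b, an enolase gene on chromosome 18, fell from 19.1, 19.98 and 22.4 CPM to 0, 0.15 and 0.34 CPM (log2 change -7.18, SE 0.37, adjusted p = 4.2e-06) and, as a copy of the enolase gene Eno1, may share reads with it. Upp1, uridine phosphorylase, fell from 1.37, 5.03 and 9.81 CPM to 0, 0.11 and 0.80 CPM (log2 change -5.40, SE 0.76, adjusted p = 0.0037). Catsperg2, of a sperm calcium channel, had 2 counts over the Llgl-intact and 162 over the Llgl-deleted libraries, a ratio of 65.3 (17.8 to 544, adjusted p = 0.0012). All of these genes were called in each alternative, and in each the sides did not overlap.

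Genes of other cell types were called too. Of 23 T cell genes 5 were called lower and 0 higher; 22 had negative changes and the list median was -1.46. Klrk1, the NKG2D receptor of cytotoxic and epidermal T cells, had 59 counts over the Llgl-intact and 3 over the Llgl-deleted libraries, a ratio of 24.4 (7.95 to 122, adjusted p = 0.012). Il2rb, the beta chain of the interleukin-2 and interleukin-15 receptors, fell from 2.03, 4.89 and 8.58 CPM to 0.25, 0.94 and 2.20 CPM (log2 change -2.44, SE 0.50, adjusted p = 0.023). Cd3g of the T cell receptor complex changed by -2.32 (SE 0.52, adjusted p = 0.035), and Tcrg-C1, a gamma chain constant region, by -2.44 (SE 0.57, adjusted p = 0.039). Itgae, the CD103 integrin of resident T cells, differed by -1.44 (adjusted p = 0.056), Trdc by -1.97 (adjusted p = 0.091) and Cd3e by -1.50 (adjusted p = 0.22). Summed over the 31 genes of the list in the table, T cell transcripts were 39.3 to 108 CPM in Llgl-intact and 23.5 to 55.7 CPM in Llgl-deleted libraries. Gzmb was at 0 in the Llgl-intact libraries and Klrg1 in all 12. Klrk1 was called in each alternative. Calls in the list dropped to 1 without Control 2, p53cKO 1, p53cKO 2, L1L2cKO 1 or L1L2p53cKO 2, and to 2 without Control 1, L1L2cKO 2 or L1L2p53cKO 3. They rose to 8 without L1L2p53cKO 1, to 9 without the library labelled p53cKO 3, and to 19 without that library and Control 3. Beside the Skint levels, L1L2p53cKO 1 had a T cell sum of 55.7 CPM with a Skint sum of 99.6 CPM. The library labelled p53cKO 3 had 39.3 CPM with 295 CPM. In the remaining Llgl-intact libraries T cell sums ran from 58.6 to 108 CPM and Skint sums from 236 to 545 CPM. In the remaining Llgl-deleted libraries they ran from 23.5 to 41.7 CPM and from 81.4 to 144 CPM. Whether either list bears on the other was not tested.

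Of 6 adipocyte genes tested 3 fell, the fatty acid carrier Fabp4 (from 0.81, 6.06 and 8.34 CPM to 0.16, 0.63 and 2.26 CPM; log2 change -2.94, SE 0.61, adjusted p = 0.024), the nuclear receptor Pparg (log2 change -0.93, SE 0.21, adjusted p = 0.032) and Retn (log2 change -3.83, SE 0.87, adjusted p = 0.038). Over the 13 adipocyte genes of the table, the sum was 23.4 to 60.2 CPM in Llgl-intact and 10.9 to 25.4 CPM in Llgl-deleted libraries, and Lep was at 0 in the Llgl-intact libraries. Control 3 and the library labelled p53cKO 3 had Fabp4 levels of 0.81 and 1.81 CPM, within the Llgl-deleted range. The adipocyte count fell to 0 without Control 1, Control 2, p53cKO 1, p53cKO 2, L1L2cKO 1, L1L2cKO 3, L1L2p53cKO 2 or L1L2p53cKO 3 and to 1 without L1L2p53cKO 1. It was 5 without Control 3, without the library labelled p53cKO 3, or without both. Pparg is also expressed in sebocytes and stands in the sebaceous list. Like the hair and sebaceous lists, the adipocyte list had a median nearer 0 in Trp53-intact (-0.85) than in Trp53 +/flox epidermis (-2.91), and its part in those results was not tested. The T cell list did not, at -1.68 and -1.61.

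Matrix genes rose in 2 named cases. Sparc, a secreted matrix glycoprotein, rose from 98.3, 112.8 and 131 CPM to 152, 213 and 293 CPM (log2 change 0.94, SE 0.12, adjusted p = 0.0022), and Mmp2, a gelatinase, from 24.7, 26.1 and 29.8 CPM to 33.3, 38.3 and 41.2 CPM (log2 change 0.49, SE 0.08, adjusted p = 0.012). Neither overlapped between the sides, and both calls held in each alternative. Sparc was the 1 gene called among 15 fibroblast genes tested, a list with a median of -0.00, and Mmp2 the 1 gene called among 15 of the epithelial-mesenchymal list. Summed over the 21 fibroblast genes in the table, the level was 348 to 863 CPM in Llgl-intact and 747 to 1130 CPM in Llgl-deleted libraries. Mfap5 was at 0 in the Llgl-deleted libraries, and Col1a1, chosen after its values were seen, differed by -0.90 (SE 0.42, adjusted p = 0.28). The part of fibroblasts in the Sparc and Mmp2 results was not tested. Without Control 3 there were 3 fibroblast genes called higher, without the library labelled p53cKO 3 there were 2, and without both 5. In the epithelial-mesenchymal list 4 were called higher and 1 lower without both. Of 20 myeloid, 15 melanocyte, 12 Merkel and nerve and 7 endothelial genes tested edgeR called 0, with 2, 2, 3 and 0 at an unadjusted p below 0.05, and DESeq2 called 1 Merkel and nerve gene.

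Stress and metabolic genes gave scattered calls. Of 24 genes of the endoplasmic reticulum stress list 2 fell, the chaperone genes Hspa5 (from 359.5, 401 and 496 CPM to 192, 261 and 348 CPM; log2 change -0.66, SE 0.14, adjusted p = 0.027) and Hyou1 (log2 change -0.49, SE 0.12, adjusted p = 0.044). Neither overlapped between the sides, 21 of the 24 genes were negative, and the median was -0.22. The list count fell to 0 without any 1 of 8 libraries (Control 1 and 2, p53cKO 1 and 2, L1L2cKO 1 and 2, L1L2p53cKO 2 and 3), was 4 without L1L2p53cKO 1, and was 7 without Control 3 and the library labelled p53cKO 3. Of 18 stress keratin and alarmin genes, Serpinb2, a serine protease inhibitor of differentiating keratinocytes, rose (log2 change 0.80, SE 0.19, adjusted p = 0.043), and Stfa1 and S100a7a fell, the latter an S100 protein (log2 change -3.10, SE 0.63, adjusted p = 0.024). The Serpinb2 call was lost with each of 10 libraries left out, all but L1L2cKO 2 and L1L2p53cKO 1, and the S100a7a call with each of 8, all but Control 3, the library labelled p53cKO 3, L1L2cKO 2 and L1L2p53cKO 1. Without Control 3 and the library labelled p53cKO 3 there were 1 higher and 4 lower calls in the stress list and 2 and 3 in the glycolysis and hypoxia list. Of the latter Eno1b and the phosphofructokinase gene Pfkp (log2 change -0.74, SE 0.17, adjusted p = 0.035) fell, 2 of 29. Pfkp was lost with each of 9 libraries left out, all but Control 3, the library labelled p53cKO 3 and L1L2cKO 2. Of 22 interferon genes edgeR called 0 and DESeq2 2 lower, with 8 at an unadjusted p below 0.05 and a median of -0.32. Without Control 3 there were 3 called lower, without the library labelled p53cKO 3 there were 2, and without both 8.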

How the data were processed

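RNA of newborn epidermis was sequenced from 12 mice, 1 library each, prepared with a stranded TruSeq mRNA kit per the labels' protocols. The values analysed are raw read counts per gene as deposited by the authors in 1 merged table of 46078 genes. Per the submitters' processing notes, STAR, featureCounts 1.6.4, DESeq2 2.11.40.8 and GRCm38 were used; the annotation release, strand setting and filters are not given in the sources used here.

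In R 4.3.3, edgeR 4.0.16 (limma 3.58.1) was fitted to all 12 libraries with 4 group means and 8 residual degrees of freedom, TMM scaling, filterByExpr with a minimum count of 10 and a robust quasi-likelihood test. The contrast was the mean of L1L2cKO and L1L2p53cKO minus the mean of Control and p53cKO, and the interaction was the difference of the 2 Llgl changes. Adjusted p-values are Benjamini-Hochberg values over all 14582 genes tested. Alternatives were DESeq2 1.42.0, other scalings and filters, additive terms, a sex term, a replicate block, each library left out, and Control 3 and p53cKO 3 left out together. In simulated data, 74 of 100 genes changed by 1 log2 unit and 92 of 100 changed by 2 were recovered, with 13 false calls among 179, over 14373 genes. The simulated libraries were independent, with no Trp53 effect and no shared deviation like that of Control 3 and p53cKO 3. These rates may therefore not hold for the real libraries.

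Named genes were Llgl1, Llgl2 and Trp53, the 12 largest called changes each way with a mean of at least 1 CPM on 1 side and no predicted or clone name, up to 4 called genes per list by p, and uncalled members of the Scribble, basal layer, G2/M and T cell lists. The genes and the 52 lists were chosen with earlier results of these data known. Gene positions are from GENCODE vM21 on GRCm38. Stated intervals of count ratios cover counting error only. Some results are not reported here.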

Additional observations from a re-analysis of the deposited data

Results flagged for a closer look

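Of 174 sets of 6 libraries (86 named genes and the total count, on each side), 30 had 1 library farther from the rest than Dixon's 95% limit for 6 samples allows. The limit flags about 1 in 20 sets of independent, normally distributed values. CPM values need not follow that distribution, genes can move together in 1 library, and zeros with a single count are always flagged. The number flagged can therefore not be set against that share.

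L1L2cKO 2 was the high library of the Llgl-deleted side in most of them. Among hair shaft genes it stood at 17.4 CPM for Krt31, 16.2 for Krt34, 2.70 for Krt40, 4.59 for Krtap4-1, 3.06 for Krtap4-8, 2.48 for Krtap4-9, 3.06 for Krtap5-5, 1.75 for Krtap19-9b and 5.10 for Krtap24-1. Among inner root sheath and other hair genes it stood at 61.5 CPM for Krt26, 361 for Krt27, 4.45 for Krt74, 82.2 for Padi3, 28.4 for Vsig8, 33.1 for Crym and 19.2 for Dsg4. It was also high for S100a7a at 12.03 CPM, Sfrp1 at 23.5, Bmp8a at 3.28, Slc4a1 at 3.57 and Upp1 at 0.802, and held the single Skint3 count, at 0.0729 CPM.

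Other libraries were high or low for 1 gene or a few. L1L2p53cKO 1 held the single counts of Skint9 and Skint4, 0.0785 CPM each, and the highest Sp5 value, 10.4 CPM. L1L2cKO 3 was high for Ccdc87 at 3.88 CPM, L1L2p53cKO 3 for Guca1b at 0.502 CPM, and L1L2p53cKO 2 low for Mylk at 1.79 CPM. On the Llgl-intact side p53cKO 1 was high for the called identifier of Flg, at 130.3 CPM, and for Fa2h, at 77.9 CPM.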

How the results depend on the processing

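Against 172 genes called higher and 313 lower, DESeq2 called 406 and 628, no filter on low counts left 202 lower, additive terms left 204 lower, and leaving out Control 3 and the library labelled p53cKO 3 gave 1185 and 1149; the cause was not tested. Leaving out 1 library at a time gave 71 to 263 higher, lowest without Control 2 and highest without the library labelled p53cKO 3, and 93 to 463 lower, lowest without Control 2 and highest without Control 3. The interaction stayed at 0 called genes in each alternative run. Over all pairs of groups 9 of 18 correlations of same-numbered deviations were above 0.1, from -0.34 to 0.83. Of 12 libraries 7 were closest to their own number. Replicate numbers did not pair the libraries across the Llgl comparison, where the correlations ran from -0.12 to 0.18. Between Control and p53cKO, both Llgl-intact, the correlations were 0.64, 0.23 and 0.83, all above 0.1, so those groups deviated together by number. With the replicate number as a block 237 genes were called higher and 427 lower. Of the 85 named genes called, 29 were called in each of 21 alternatives. Trp53, never called, turned from -0.03 to 0.027 with a sex term, 0.15 without p53cKO 3, 0.0076 without L1L2p53cKO 2, 0.018 without L1L2p53cKO 3 and 0.16 without Control 3 and p53cKO 3. Leaving out 1 library at a time it ran from -0.14 to 0.15. Genes near 1 CPM rest on few counts at these depths.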

Other observations

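Some genes outside the lists changed as well. Orm2, an acute-phase glycoprotein gene, rose from 0.08, 0.37 and 0.55 CPM (lowest, median, highest) to 0.92, 1.45 and 2.89 CPM (log2 change 2.30, SE 0.41, adjusted p = 0.014), and Ccdc87 rose by 2.13 (SE 0.35, adjusted p = 0.0098). Both were called in each alternative and neither overlapped. Chosen after their values were seen, Dera, a deoxyribose-phosphate aldolase gene, rose from 17.5, 19.9 and 22.3 CPM to 37.2, 40.5 and 45.9 CPM (log2 change 1.05, SE 0.08, adjusted p = 3.6e-05). The sialyltransferase gene St6galnac2, on chromosome 11 within 5 Mb of Llgl2, fell from 19.3, 21.0 and 23.3 CPM to 7.93, 9.14 and 10.2 CPM (log2 change -1.22, SE 0.10, adjusted p = 5.2e-05). Enpp1, a pyrophosphate-generating enzyme gene, rose by 1.90 (SE 0.27, adjusted p = 0.0047) and the transcription factor gene Runx2 by 0.85 (SE 0.15, adjusted p = 0.015), both without overlap.

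By gene class, 11% of 373 pseudogenes tested were called (33 higher, 8 lower), against 3.1% of 13223 protein-coding genes. Of 13 mitochondrial genes tested, 3 transfer RNA genes rose, mt-Tt (log2 change 2.09, SE 0.36, adjusted p = 0.014), mt-Tl1 (1.53, SE 0.26, adjusted p = 0.011) and mt-Tw (1.65, SE 0.40, adjusted p = 0.047). Of 8 mitochondrial protein genes edgeR called 0 and DESeq2 1, with 1 at an unadjusted p below 0.05 and a median of 0.29. Several RNAs that are not polyadenylated or that resemble ribosomal RNA fell besides Yam1, and were chosen after their values were seen: Rmrp ran from 1.58 to 20.3 CPM in Llgl-intact and from 0.21 to 2.14 CPM in Llgl-deleted libraries, and Rpph1 from 1.96 to 112 CPM and from 0.31 to 3.50 CPM. Lars2, a mitochondrial leucyl-tRNA synthetase gene, ran from 670.5 to 10490 CPM and from 246 to 511 CPM.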
